A study of Mus musculus with 16 samples.

Results

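Neutrophil transcripts in liver were followed through 9 genes, S100a8, S100a9, Ngp, Camp, Ltf, Il1b, Mmp8, Retnlg and Cxcr2, of the 37074 gene names on the array. They were found by their gene name in the scanner output and are measured by 11 of the 56605 probes, 1 probe for each gene and 3 for Il1b. The samples were livers of 16 conventional (Conv) C57BL/6 male mice, 10 weeks old and fed a normal chow (NC), 1 array per mouse. In 6 of them, called Conv + PBS, the vehicle (reduced PBS) was given by gavage according to the methods, while the labels call these mice not transplanted. The 5 Conv + LM mice were inoculated with caecal microbiota from lean mice (LM, lean microbiota) and the 5 Conv + OM(HFD) mice with that from mice made obese by a high-fat diet (OM, obese microbiota). The inocula were pooled from several donors, so inoculated mice of 1 group shared an inoculum. According to the methods, mice were housed 5 or 6 to a cage. Which mice shared a cage is not given, so condition and cage cannot be told apart. The tests below treat the mice as independent. Signals are given as levels, the log2 of the background-subtracted intensity minus the 75th percentile of the same array, so that 0 is the brightness of a probe at that percentile. Levels are compared between mice for the same probe, and a brighter probe does not mean a more abundant transcript.

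Neutrophils are short-lived white blood cells made in the bone marrow, which leave the blood for tissues where bacteria or damage are sensed. They carry ready-made granules: primary granules with myeloperoxidase and serine proteases, secondary granules with lactoferrin and cathelicidin, and tertiary granules with matrix-degrading enzymes. Most granule proteins are transcribed in marrow precursors, while S100a8, S100a9, Il1b, Retnlg and Cxcr2 are also transcribed in mature cells. In the liver, neutrophils pass through or lodge in the sinusoids beside Kupffer cells, the resident macrophages. In bulk tissue, more cells of a type and more RNA per cell cannot be told apart.

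The sequences of 3 probes are shown because they define what was measured for a calcium-binding protein gene and 2 granule genes, and each holds at least 1 reading frame without a stop. On mm9, the S100a8 probe lies at chr3:90473778-90473837 on the plus strand and the Ltf probe at chr9:110942873-110942932 on the plus strand. The Ngp probe spans chr9:110324266-110324814 on the plus strand, longer than its 60 bases. All are printed in lower case, with nothing marked.
S100a8: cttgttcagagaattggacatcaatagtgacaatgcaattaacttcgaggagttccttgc
Ngp: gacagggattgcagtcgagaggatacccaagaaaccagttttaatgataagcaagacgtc
Ltf: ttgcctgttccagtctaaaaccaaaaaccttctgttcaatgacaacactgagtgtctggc

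Some of the genes lie near each other. S100a8 and S100a9, whose proteins form the dimer calprotectin, start 26.6 kb apart on chromosome 3, and Camp, Ngp and Ltf start within 1.17 Mb of each other on chromosome 9, on GRCm38.p6. Mmp8, also on chromosome 9, starts 102.29 Mb from Camp. All 9 genes matched a RefSeq promoter. The 250 bases before the start of 4 genes are shown because they hold a match to a motif of C/EBP factors (TTGCNNAA), the factors that drive granule genes in neutrophil precursors, or of PU.1 (GAGGAAG), a myeloid factor, or the TATA box (TATAAA), searched on both strands and printed in capitals. No match overlapped another. The C/EBP letters were in the window of 5 of the 9 genes (S100a9, Ngp, Ltf, Mmp8 and Retnlg), against 9.55% of 27025 promoters of the same length, and the PU.1 letters in 2 (S100a8 and Mmp8), against 10.4%. The TATA letters were in the window of S100a8 and Il1b, against 13% of promoters. The windows are chr3:90668821-90669070 (plus) for S100a8, chr3:90695722-90695971 (minus) for S100a9, chr9:110419558-110419807 (plus) for Ngp and chr9:111019042-111019291 (plus) for Ltf.
S100a8: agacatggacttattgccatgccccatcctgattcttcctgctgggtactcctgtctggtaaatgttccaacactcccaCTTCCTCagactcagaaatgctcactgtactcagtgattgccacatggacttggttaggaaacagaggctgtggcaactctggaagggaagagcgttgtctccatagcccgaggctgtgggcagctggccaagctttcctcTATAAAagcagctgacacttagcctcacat
S100a9: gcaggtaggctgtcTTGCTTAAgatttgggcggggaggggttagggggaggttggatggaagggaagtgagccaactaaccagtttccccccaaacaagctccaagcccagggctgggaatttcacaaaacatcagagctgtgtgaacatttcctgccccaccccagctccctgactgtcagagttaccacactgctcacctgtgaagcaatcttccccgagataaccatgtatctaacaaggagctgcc
Ngp: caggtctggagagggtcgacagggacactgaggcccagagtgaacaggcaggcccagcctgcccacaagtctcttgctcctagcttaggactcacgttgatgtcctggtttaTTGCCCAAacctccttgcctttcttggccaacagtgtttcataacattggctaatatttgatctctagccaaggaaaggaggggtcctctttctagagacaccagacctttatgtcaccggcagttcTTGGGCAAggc
Ltf: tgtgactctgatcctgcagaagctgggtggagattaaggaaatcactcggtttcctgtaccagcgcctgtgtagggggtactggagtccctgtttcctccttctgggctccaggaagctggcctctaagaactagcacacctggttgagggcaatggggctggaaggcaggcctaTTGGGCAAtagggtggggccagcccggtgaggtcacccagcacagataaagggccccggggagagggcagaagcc

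Across the 16 arrays, the 75th percentile of intensity ranged from 223 to 324, between 49.7% and 58.3% of probes were called well above background, and no probe was saturated. Hepatocyte genes marked the tissue: albumin (Alb) lay between 9.89 and 10.35 in every mouse. Detection of the neutrophil transcripts was uneven. S100a9 and Camp were well above background on all 16 arrays, S100a8 and Il1b on 14, Mmp8 on 12 and Ngp on 5, and these 6 genes passed the filter of at least 5 arrays. Retnlg and Cxcr2 were well above background on 3 arrays each and Ltf on 2, none of them from a Conv + LM mouse. The other Il1b probes were detected on 2 arrays and on 1. The Il1b values given are those of its brightest probe, which starts at base 1236 of its transcript, while the probe detected on 2 arrays starts at base 703 of the same transcript.

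Neutrophil transcripts stood out in single mice, and no condition differed detectably from another after adjustment. In mouse 1 of Conv + PBS and mouse 25 of Conv + OM(HFD), 7 of the 9 genes had their 2 highest levels of all 16 mice, while these mice were the 2 highest for 728 of 20404 genes (3.57%). Of the 6 neutrophil genes among those 20404, 5 had them as the 2 highest. That pair was the most frequent top pair among all genes, before mice 4 and 30 with 607 genes. No Conv + LM mouse stood apart in this way. The mice lay on different slides, mouse 1 on slide 2 and mouse 25 on slide 1. Both were noticed from these values, so the counts describe them and are no test.

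S100a9, the larger subunit of calprotectin, gave the clearest picture. In Conv + PBS mice its level ranged from -2.68 over a median of -1.65 to 3.85 in mouse 1. In Conv + LM mice 13 to 17 it was -2.24, -0.998, -1.32, -0.86 and -2.16, and in Conv + OM(HFD) mice 25, 26, 28, 29 and 30 it was 3.88, -2.46, -0.78, -1.20 and -1.01. Mice 1 and 25 were thus high and nearly equal, and the other 14 mice of the 3 groups overlapped. Mouse 1 was 39.2-fold above the next Conv + PBS mouse, and mouse 25 was 25.4-fold above the next Conv + OM(HFD) mouse.

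S100a8, the other calprotectin subunit, followed it. Its Conv + PBS levels ran from -4.57 over a median of -3.76 to 1.73 in mouse 1. The Conv + LM mice gave -4.03, -4.30, -4.01, -3.06 and -4.23, and the Conv + OM(HFD) mice 1.49, -5.31, -2.90, -3.53 and -3.31. The same mice were high, 31.1-fold above the next in Conv + PBS and 20.9-fold in Conv + OM(HFD), and the highest of the other mice was mouse 28 at -2.90.

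Among the secondary granule genes, Camp, the precursor of the antimicrobial peptide cathelicidin, ran from -2.33 over a median of -1.73 to 1.56 in Conv + PBS mice. Its levels were -2.22, -1.80, -1.80, -1.50 and -2.01 in Conv + LM mice and 0.99, -2.25, -1.60, -1.71 and -1.48 in Conv + OM(HFD) mice. Mouse 1 was 8.51-fold and mouse 25 was 5.51-fold above the next mouse of its group, and the remaining mice lay within 1 unit of each other. Ltf, which encodes the iron-binding lactoferrin, was well above background in mouse 1 (-1.03) and mouse 25 (-1.81) alone. In the other 14 mice it lay between -7.40 and -5.88, below the lowest level called well above background. Against that limit, mouse 1 was at least 8.13-fold and mouse 25 at least 5.82-fold higher than the mice of its own group.

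Ngp, a cathelicidin relative of neutrophil granules, was less regular. Mice 1 (-2.22) and 25 (-2.31) were the highest, but mouse 14 of Conv + LM (-2.83), mouse 4 (-2.98) and mouse 3 (-4.25) were also well above background. Its margin over the highest other mouse was 0.61 in mouse 1 and 0.52 in mouse 25. Retnlg, a resistin-like protein secreted by neutrophils, was -2.03 in mouse 1 and -1.94 in mouse 25, and -4.01 in mouse 26, the only other mouse where it was well above background. The remaining Retnlg levels lay between -6.93 and -5.13.

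Il1b, the gene of the pro-inflammatory cytokine interleukin-1 beta, which macrophages also make, ran from -4.12 over a median of -3.41 to -0.28 in Conv + PBS mice. It was -2.99, -2.80, -2.77, -3.85 and -3.26 in Conv + LM mice and -1.48, -4.65, -3.43, -3.76 and -4.15 in Conv + OM(HFD) mice. Mouse 1 was 7.66-fold and mouse 25 was 3.86-fold above the next mouse of its group. Of the other Il1b probes, the one starting at base 703 was detected in mice 1 (-2.75) and 25 (-4.45) alone, and the last one in mouse 25 alone (-4.43).

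Mmp8, the neutrophil collagenase, and Cxcr2, the receptor for neutrophil-attracting chemokines, did not single out these mice. Mmp8 was highest in mouse 28 of Conv + OM(HFD) (-2.46), followed by mouse 1 (-2.56), mouse 30 (-2.92) and mouse 25 (-2.98). Cxcr2 was well above background in mouse 3 (-3.73), mouse 25 (-3.82) and mouse 28 (-4.08), and not in mouse 1 (-5.04).

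**Figure D1:**
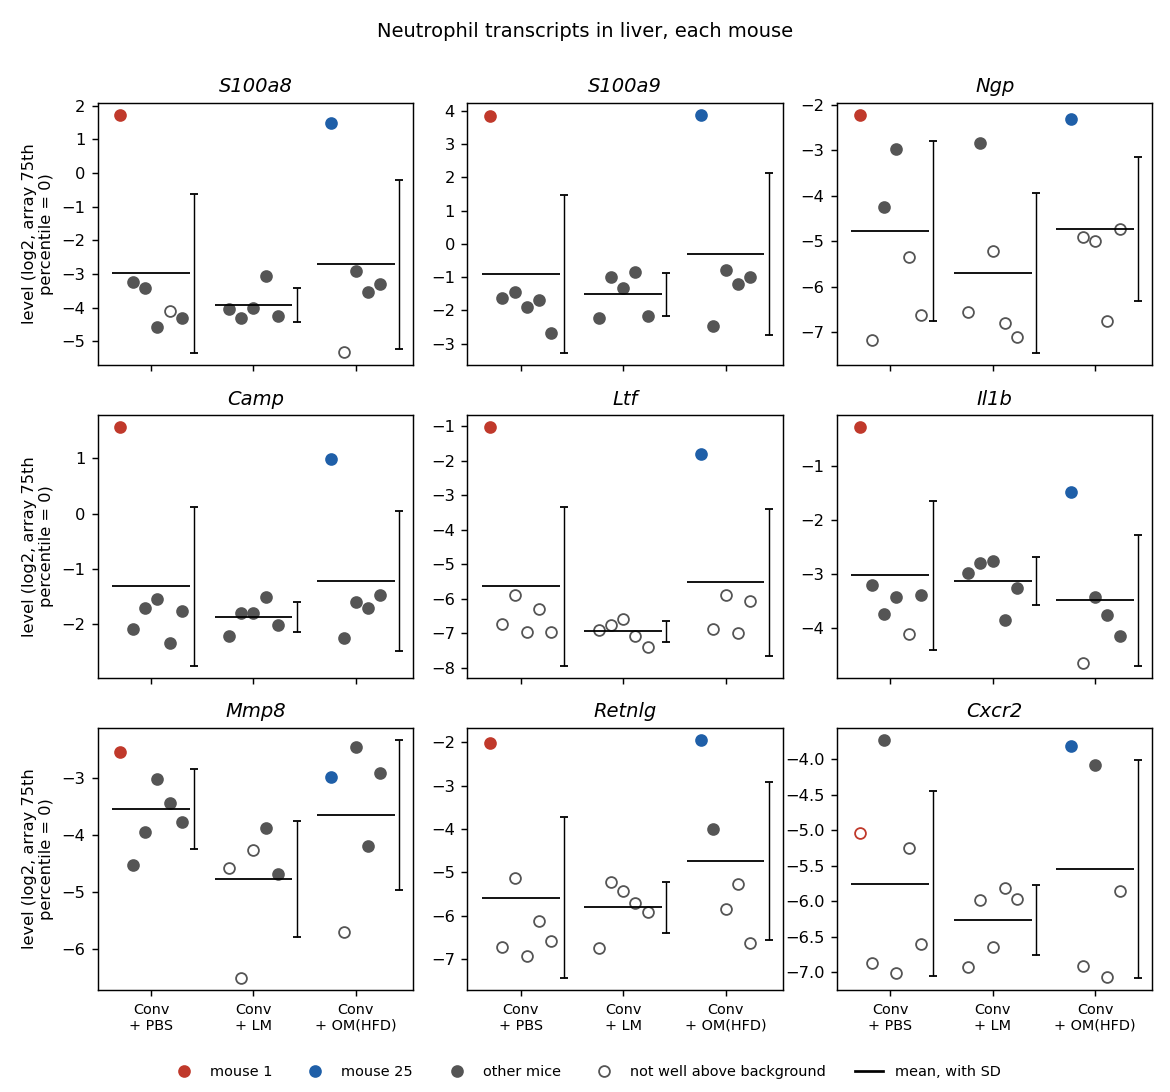
Level of each of the 9 genes in every mouse by group, in log2 with the 75th percentile of the array at 0; open circles are not well above background, lines are group means and bars their SD. Mouse 1 (red) and mouse 25 (blue) lie far above the rest for S100a8, S100a9, Camp, Ltf, Il1b and Retnlg, and among the others for Mmp8 and Cxcr2.

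Between mouse 1 and mouse 25 most of the neutrophil genes were closer than either was to the other mice. Mouse 25 minus mouse 1 was 0.033 for S100a9, 0.083 for Retnlg, -0.098 for Ngp, -0.25 for S100a8, -0.57 for Camp and -0.78 for Ltf. It was -1.20 for Il1b. Mmp8 was an exception: mouse 25 minus mouse 1 was -0.43, while mouse 1 minus mouse 28 was -0.098. No difference is given for Cxcr2, which was not well above background in mouse 1. Each mouse is 1 array, so these differences have no error.

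The spread of the 6 genes above background was wide. Their SD within groups ran from 1.02 for Mmp8 to 2.05 for S100a8, against a median of 0.24 over all 20404 genes, and all 6 lay in the top 5% of genes. Without mice 1 and 25, the SD fell to 0.31 for Camp, 0.44 for Il1b, 0.63 for S100a9 and 0.72 for S100a8, and Ngp (1.56) and Mmp8 (1.03) remained in the top 5%, with Ngp well above background in 3 of these 14 mice.

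Relations among the genes were looked at in the other 14 mice. Mice 1 and 25 were far above the rest for S100a8, S100a9, Camp and Il1b, and a value over all mice would rest on them. Over 15 pairs of the 6 genes, on deviations from group means, Pearson's r ran from -0.30 to 0.74 with a median of 0.29. The 5 pairs with Ngp, among them the lowest, rest mostly on levels not well above background. It was highest for S100a8 and S100a9 (r = 0.74, permutation p = 0.0079; rho = 0.76, permutation p = 0.00375). Adjusted over the 15 pairs these were 0.118 and 0.0562, and no pair passed. Without the 2 mice farthest from the median of S100a8, r was 0.54. As a description, S100a8 ranked 26 among 20403 genes by r with S100a9 in these 14 mice, and Camp ranked 408.

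The 3 conditions were then compared with limma, with all 3 groups in 1 fit and adjustment over all genes. Conv + OM(HFD) and Conv + PBS mice did not differ detectably for any of the 9 genes. S100a8 was -2.71 ± 2.52 (SD, n = 5) and -2.98 ± 2.37 (SD, n = 6). On the log2 scale the difference was 0.27, with a 95% interval from -2.17 to 2.70, so that a 4-fold difference either way lies inside it. S100a9 differed by 0.60 (SE 1.13) and Camp by 0.10 (SE 0.64). None of the 9 genes reached an unadjusted p under 0.05, against 3.23% of 20404 genes tested (2.40% without the filter), and of the 6 genes above background 4 were higher and 2 lower on average. The smallest unadjusted p was 0.36, for Retnlg, taken from the fit without the filter, and every adjusted p in limma rounded to 1. The median log2 fold change was 0.065 for the 6 genes above background and -0.000416 for all genes. The groups overlapped for all 9 genes, as they did for all but 0.235% of genes tested.

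The difference between these groups had opposite signs on the slides. For S100a8, Conv + OM(HFD) minus Conv + PBS was 2.01 on slide 1, which holds mouse 25, and -2.04 on slide 2, which holds mouse 1, and 0.24 with the slide as a block. The signs were also opposite for S100a9 (2.28 and -1.59), Camp (1.35 and -1.40), Il1b (0.67 and -1.84) and Mmp8 (1.19 and -1.82). Without both mice the difference was 0.16 (SE 0.44) for S100a8, 0.50 (SE 0.38) for S100a9 and 0.13 (SE 0.20) for Camp, none at an unadjusted p under 0.05.

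In Conv + LM mice, the levels of all 6 genes above background were below those of Conv + PBS mice on average, by 0.11 to 1.23 on the log2 scale, and 1 of the 6 reached an unadjusted p under 0.05, against 3.94% of all genes (3.12% without the filter). This was Mmp8, at -4.78 ± 1.01 (SD, n = 5) against -3.55 ± 0.70 (SD, n = 6), a difference of -1.23 (SE 0.57) with an unadjusted p of 0.0476 and an adjusted p of 0.997 in limma. Mmp8 levels were -4.58, -6.50, -4.26, -3.87 and -4.68 in Conv + LM mice, of which 3 were not well above background, and ran from -4.53 over a median of -3.62 to -2.56 in Conv + PBS mice, so the groups overlapped. They overlapped for all 9 genes, and for all but 0.279% of genes tested. An exact two-sided permutation test gave p = 0.0281, where the smallest possible is 0.00216, and it was not corrected for the 27 such tests. Within slides the Mmp8 difference was -1.56 on slide 1, where neither Conv + LM array was well above background, and -1.15 on slide 2. Mmp8 stayed under an unadjusted p of 0.05 in 8 of 26 alternative settings, and not when any one of mice 1, 3, 4, 5, 6, 13, 14, 17, 25, 29 or 30 was left out. The signs were opposite on the slides for Il1b (0.80 and -0.93) and Camp (0.038 and -1.19). For Ngp no values by slide are given in these comparisons, since on slide 2 no Conv + LM and no Conv + OM(HFD) array was well above background. Without mice 1 and 25, Conv + LM minus Conv + PBS was 0.35 for S100a9, 0.020 for Camp, 0.44 for Il1b, -0.0030 for S100a8 and -0.42 for Ngp, against -0.60, -0.55, -0.11, -0.95 and -0.93 with them. The Ngp values are uncertain, since 1 of the 5 Conv + LM arrays had it well above background. The Mmp8 difference of -1.23 was -0.24 with normexp background correction, -0.36 in the authors' log2 table and -0.80 without mouse 14.

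Conv + OM(HFD) mice had higher averages than Conv + LM mice for 5 of the 6 genes above background, with none at an unadjusted p under 0.05, against 2.70% of all genes (1.98% without the filter). S100a9 differed by 1.20 (SE 1.18), S100a8 by 1.21 (SE 1.19) and Mmp8 by 1.13 (SE 0.60, unadjusted p = 0.0773, adjusted p = 1 after rounding, limma). The Mmp8 difference was 0.35 with normexp and 0.42 in the authors' log2 table. It was 0.70 without mouse 14 of Conv + LM, whose level of -6.50 was not well above background. The differences had opposite signs on slide 1 and slide 2 for Mmp8 (2.75 and -0.68, the former against Conv + LM arrays not well above background), S100a8 (2.59 and -0.66), S100a9 (2.32 and -0.38) and Camp (1.31 and -0.21). The groups overlapped for all 9 genes, and for all but 0.456% of genes tested. Il1b was the 1 gene that was lower, by 0.36 (SE 0.65). Its difference was -0.035 in the authors' log2 table, 0.049 with normexp and from -0.86 to -0.069 leaving out single mice. The higher averages of S100a8, S100a9 and Camp rested on mouse 25: without it the differences were 0.16, 0.15 and 0.11, against 1.21, 1.20 and 0.65 with it, and that of Mmp8 was 0.96. Without mouse 25 no Conv + OM(HFD) array had Ngp well above background. Without mice 1 and 25 these differences are the same, with unadjusted p from 0.151 to 0.718, and Il1b was lower by 0.86 (SE 0.27), with an unadjusted p of 0.00757 and an adjusted p of 0.941 in limma. For Ltf, Retnlg and Cxcr2, which no Conv + LM array measured well above background, no fold against that group can be given, since the average of the other groups lay below the level that the limit allows.

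**Figure D2:**
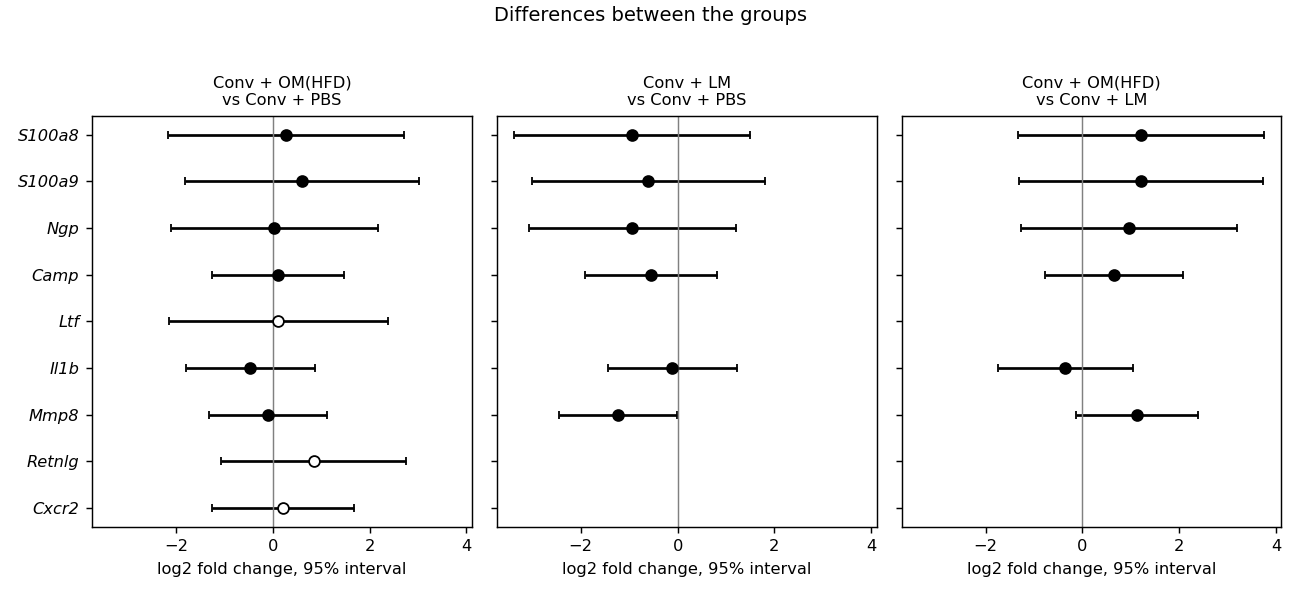
Log2 fold change of each gene in the 3 comparisons (horizontal axis) with the 95% interval from limma; filled circles are genes above background, open circles genes from the fit without the filter, left out against Conv + LM, where no array measured them well above background. All intervals shown include 0 except that of Mmp8 in Conv + LM vs Conv + PBS mice, which ends at -0.015.

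Further genes of the neutrophil programme were read from 3 lists with 33 genes, of which 22 were above background. None passed the adjusted threshold in any comparison, and 1 of them, Ctsc, the protease that activates the granule serine proteases, reached an unadjusted p under 0.05, against 3.94% and 2.70% of all genes in the comparisons in which it did. Ctsc differed by -0.40 (SE 0.19, limma adjusted p = 0.997) in Conv + LM vs Conv + PBS mice and by 0.41 (SE 0.19, limma adjusted p = 1 after rounding) in Conv + OM(HFD) vs Conv + LM mice. Mice 1 and 25 were the 2 highest for 11 of the 22.

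Of the primary granule genes, 3 of 4 above background had these 2 mice on top. Mpo (myeloperoxidase) was 0.87 in mouse 25 and -1.34 in mouse 1, against -6.00 to -3.20 in the other mice, and Prtn3 (proteinase 3) was -0.72 and -3.58, against -6.42 to -3.63. Both were thus higher in mouse 25 than in mouse 1, as was Lcn2 of the secondary and tertiary granule list. Camp, Ltf, Ctsc and Elane were not. Ctsc was 2.95 in mouse 25, 3.002 in mouse 1 and at most 2.68 elsewhere. The Elane (neutrophil elastase) probe lay between 0.084 and 0.67 in the other 14 mice, with 0.64 in mouse 1 and 0.55 in mouse 25, and did not follow.

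Of the secondary and tertiary granule genes above background, Lcn2 (lipocalin-2, which binds bacterial siderophores and is also made by hepatocytes) reached 6.08 in mouse 25 and 2.77 in mouse 1, against -0.66 to 1.78 in the others. Cybb, the catalytic subunit of the phagocyte oxidase, was -1.21 in mouse 1 and -1.69 in mouse 25, against -3.99 to -2.44. Hp (haptoglobin, which the liver itself secretes) was 9.75 in mouse 25, above the range of 9.18 to 9.60 in the others, and 9.27 in mouse 1, inside it. Ltb4r1, the leukotriene B4 receptor, did not have these mice as the 2 highest. Mmp9, a gelatinase below the filter and named after its values were seen, was detected in mouse 28 (0.56) and mouse 25 (-3.91) alone, and mouse 28 was also the highest for Mmp8.

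Of 14 surface and signalling genes above background, 6 had mice 1 and 25 as the 2 highest: the integrin chain Itgb2, the formyl peptide receptors Fpr1 and Fpr2, the Fc receptor Fcgr3, the selectin ligand Selplg and Alox5ap. These 6 were named after their values were seen, and macrophages express them too. The 4 with the brightest probes on average, the G-CSF receptor Csf3r, Cebpd, Cebpe and the integrin chain Itgam, did not have them on top: Csf3r was 6.95 in mouse 1, 6.84 in mouse 25 and 6.66 to 7.13 in the others. Ly6g, the usual surface marker of mouse neutrophils and named after its values were seen, was -0.39 in mouse 1, above the range of -1.09 to -0.64, and -0.83 in mouse 25, inside it.

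Of 10 genes listed as neutrophil chemokines, a growth factor and inflammatory cytokines, 4 were above background, of which Cxcl1 was the 1 chemokine. Cxcl1 was 3.03 in mouse 25 and 2.02 in mouse 1, against -1.52 to 0.62. Tnf, Il18 and Il1rn did not have these mice as the 2 highest. Cxcl2 and Csf3, the gene of the growth factor G-CSF, had no array well above background, and both were picked with their values in view.

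The 9 genes given here as most like the average of the 6 neutrophil genes above background, by Pearson's r over the 16 mice on deviations from group means, were Spic, Plek, Gpsm3, Clec12a, Lcp2, LOC102642410, Fpr2, Gpr65 and Ptpn18, with r from 0.92 to 0.94. These values rest on mice 1 and 25: over the other 14 mice, r for the same genes was 0.25 to 0.67. Spic, a transcription factor of iron-recycling macrophages, was 0.40 in mouse 1 and -0.056 in mouse 25, against -1.91 to -0.91 in the other mice.

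Markers of other cells moved with the same mice. All 9 Kupffer cell genes had mice 1 and 25 as the 2 highest, among them Cd5l (6.01 and 4.97, against 3.32 to 4.20), Clec4f (4.37 and 3.80, against 2.45 to 3.14) and the scavenger receptor Marco (5.32 and 3.43, against 0.17 to 2.37). The summed level of the list, in multiples of the 75th percentile, was 25.3 to 145 in Conv + PBS mice, 20.8 to 31.7 in Conv + LM mice and 23.8 to 66.0 in Conv + OM(HFD) mice, with mouse 1 and mouse 25 the highest of their groups. Unlike S100a8 and S100a9, which were level between the 2 mice, all of the Kupffer genes named here were higher in mouse 1. Of the monocyte genes, 3 of 6 had these mice on top. The monocyte sums were 207 to 252, 192 to 212 and 188 to 224 in the groups in the same order. They were led by the bright Fn1 probe, which did not follow (7.66 in mouse 1, 7.64 in mouse 25, 7.46 to 7.86 in the others). The sum of mouse 1 was 252 and that of mouse 25 was 224, against 188 to 244 in the other mice. The part of macrophages and monocytes in the neutrophil values was not tested.

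Acute phase genes, which hepatocytes switch on under inflammatory cytokines, were high in the same mice, more in mouse 25. Of 10 genes, 5 had mice 1 and 25 as the 2 highest and 9 had mouse 25 above all 14 other mice. Orm1 was 8.63 in mouse 25 and 7.95 in mouse 1, against 7.12 to 7.80, and Orm2 was 7.62 and 6.90, against 5.81 to 6.52. Fgb was 9.86 in mouse 25 and 9.37 in mouse 1, inside the range of 9.10 to 9.57. Saa1 (serum amyloid A), named after its values were seen, was 9.04 in mouse 25 and 6.55 in mouse 1, against 3.81 to 5.32.

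Hepatocyte and red blood cell genes did not follow. None of the 6 hepatocyte and 9 red blood cell genes had mice 1 and 25 as the 2 highest, and the summed level of the hepatocyte genes was 3639 and 3778 in these mice, within 3496 to 4525 in the others. The red blood cell sum was 548 in mouse 1 and 1074 in mouse 25, within 378 to 1147. No gene of the list for eosinophils, basophils and mast cells was above the filter. The T and NK cell sum, led by the bright Cd4 probe, was 35.1 and 37.0, against 35.5 to 61.3. Mouse 1 was nevertheless above all 14 other mice for 3 of the 5 genes of that list (Cd3g, Nkg7 and Klrb1c, the last named after its values were seen), and mice 1 and 25 were the 2 highest for Nkg7. The B cell sum was 1.02 and 1.32, against 0.25 to 0.997. Of the proliferation genes, 2 of 3 above background had mice 1 and 25 as the 2 highest, and their sum was 0.384 and 0.4998, against 0.190 to 0.301. The platelet sum was 0.928 and 1.97, against 0.413 to 1.92, and 2 of the 4 platelet genes above background had these mice as the 2 highest.

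**Figure D3:**
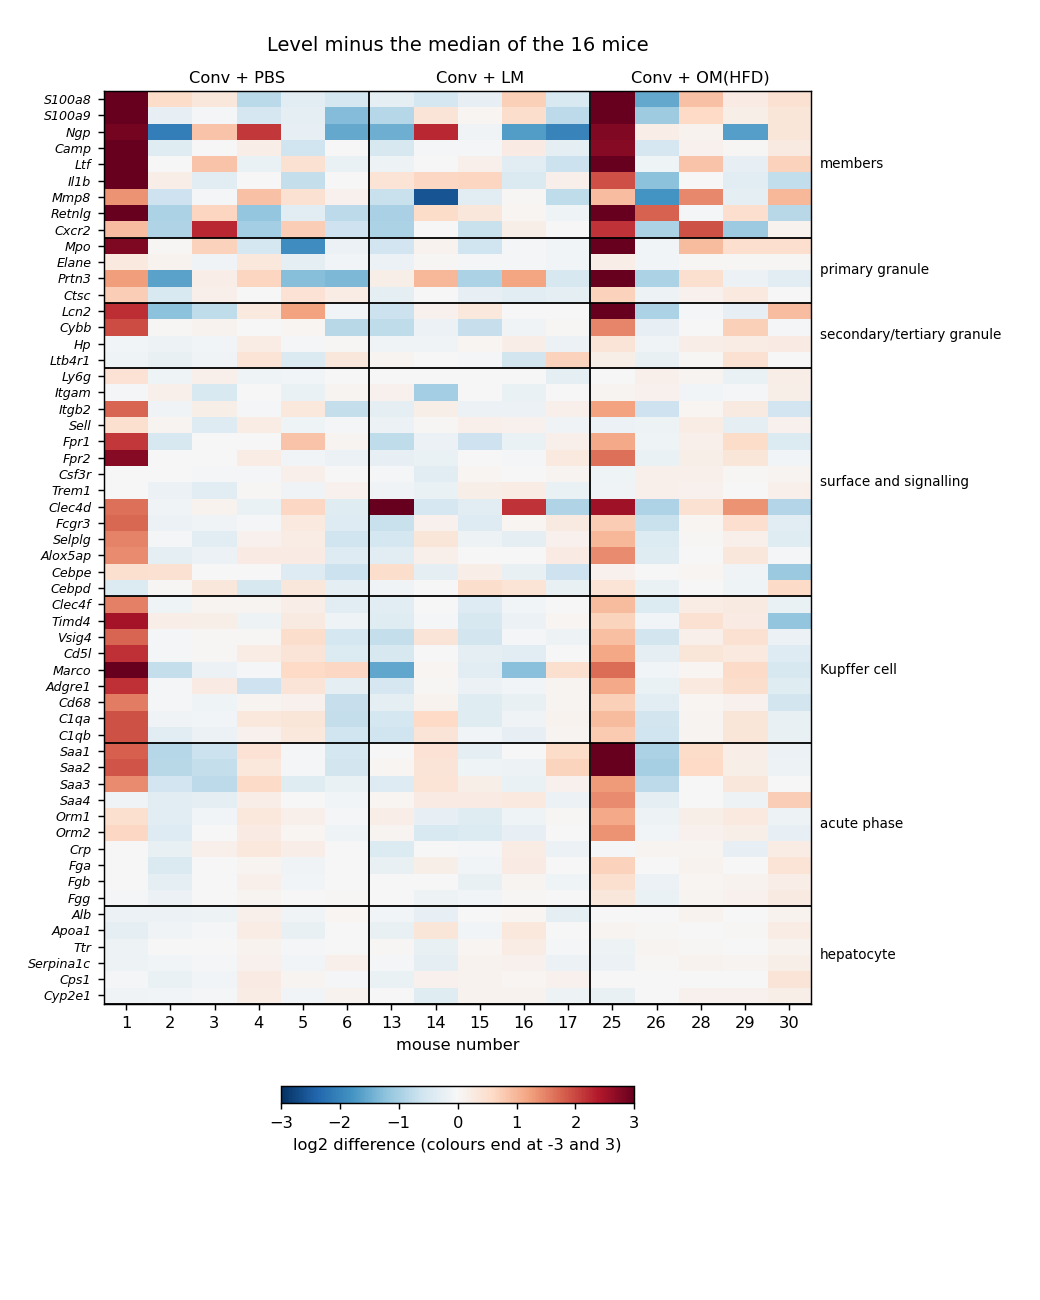
Level of each gene (rows, grouped by list) in each mouse (columns, by group) minus the median of the 16 mice, in log2, red higher and blue lower, with colours ending at -3 and 3. Mouse 1 and mouse 25 are red for all 9 members at the top, palest for Mmp8 and Cxcr2 in mouse 1 and for Mmp8 in mouse 25, and red for all Kupffer cell genes and Saa1, Orm1 and Orm2, and they are pale through the hepatocyte genes.

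**Figure D4:**
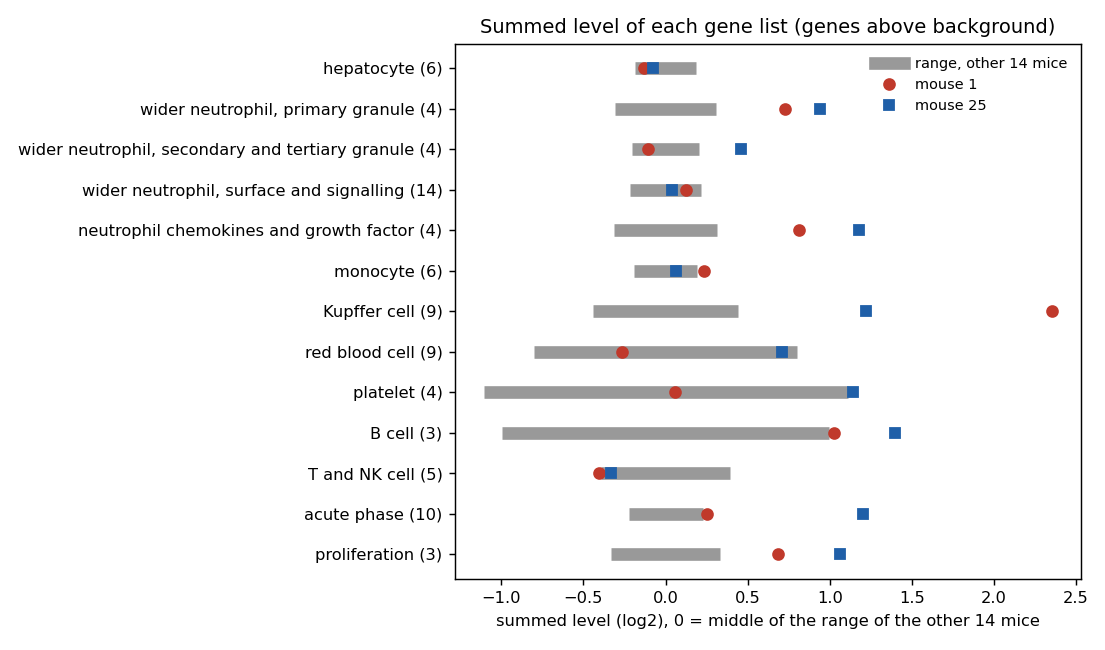
Summed level of each gene list in log2 (horizontal axis, with the number of genes in brackets), as the range of the other 14 mice (grey) with mouse 1 (red circle) and mouse 25 (blue square); 0 is the middle of the grey range. Both mice lie above the grey range for the Kupffer cell, primary granule, acute phase, chemokine, B cell and proliferation lists, with mouse 1 farthest out for Kupffer cell genes, and inside it for hepatocyte genes; a sum is led by the brightest probes of its list.

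Over all genes, mouse 1 lay more than 1 log2 unit above every other mouse of its group for 390 of 20404 genes and mouse 25 for 334, while the other 14 mice did so for 12 to 202. Of the 9 neutrophil genes, 6 did so in mouse 1 and 7 in mouse 25.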

How the data were processed

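Liver RNA of 16 mice was measured on 1-colour Agilent arrays. The authors extracted spot intensity with Agilent Feature Extraction 10.10.1.1; the deposited intensity used here is background-subtracted and not normalized between arrays. The authors also deposited log2 values, close to quantile-normalized log2 median intensity (lowest r 0.999998834, largest difference 0.132). Groups came from the labels. Without control spots, repeated spots of a probe were averaged, and the 75th percentile of an array's log2 values was subtracted from each of them. Probes well above background on at least 5 arrays were kept, and the brightest on average stood for a gene (20404 genes); Ltf, Retnlg and Cxcr2 come from a fit without this filter (37074 genes). Groups were compared with limma 3.58.1 in R 4.3.3 (lmFit, eBayes, Benjamini-Hochberg) and with exact two-sided permutation tests. Whether mice are independent beyond their cage is not given in the sources used here. The fit was tested on simulated data. Pairwise correlations used 100000 permutations within groups.

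Alternatives were normexp (offset 50), quantile normalization, the log2 table, no filter, all 16 arrays, slide as a block and only the groups compared. Array weights, mean of probes, an unpaired t-test and leaving out each mouse were also run. The paper names no test for the arrays. Leaving out mice 1 and 25 together was added after the data were seen. Named genes are the 9 members, wider neutrophil genes at an unadjusted p under 0.05, the 4 brightest of each list and the 10 most alike, of which 1 is not reported here, with exceptions stated. Members and lists were chosen with earlier results of these data known. Promoters are from RefSeq (GRCm38.p6); probe positions are on mm9.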

Additional observations from a re-analysis of the deposited data

Results flagged for a closer look

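In groups of 5 or 6 mice, the gap between the highest mouse and the next, divided by the range of the group, passed Dixon's 95% limit for 23 sets of levels among the 9 neutrophil genes and the 9 reported genes most like them. Chance flags about 1 in 20 groups when both ends of a group count, and fewer for the highest mouse alone. Flags of genes that move together are not independent. Over all 20404 genes the highest mouse passed this limit for 1.77% of genes in mouse 1, 1.43% in mouse 25 and 0.284% in mouse 16. The 9 most alike genes were chosen for this pattern. In Conv + PBS, mouse 1 was flagged for S100a8 (0.787), S100a9 (0.81), Camp (0.795), Ltf (0.82), Il1b (0.764) and Retnlg (0.634). In Conv + OM(HFD), mouse 25 was flagged for S100a9 (0.736), Camp (0.761) and Ltf (0.785). For Ltf in both groups and Retnlg in Conv + PBS, no other mouse of the group was well above background. Their gaps are therefore measured against undetected levels. In Conv + LM, mouse 16 was flagged for S100a8 (0.766), where it lay 0.95 above the next mouse.

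Among these most alike genes, mouse 1 was flagged for Spic (0.824), Plek (0.652), Gpsm3 (0.702), Clec12a (0.732), Lcp2 (0.783), Fpr2 (0.87), Gpr65 (0.737) and Ptpn18 (0.785). Mouse 25 was flagged for Spic (0.729), Plek (0.73), Gpsm3 (0.81), Lcp2 (0.726) and Gpr65 (0.879).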

How the results depend on the processing

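No neutrophil gene reached an adjusted p under 0.05 in any comparison under any setting run. The 1 gene at an unadjusted p under 0.05 in Conv + LM vs Conv + PBS mice, Mmp8, was lost (0 genes) with normexp, quantile normalization, the authors' log2 table, no filter, the slide as a block, array weights and without mice 1 and 25 (0 genes also with probes detected on all 16 arrays, where Mmp8 was not among those tested), and its p ran from 0.0184 to 0.185. Its log2 fold change of -1.23 was -0.24 with normexp, -0.36 in the log2 table, -0.78 with array weights and -1.14 with quantile normalization. In Conv + OM(HFD) vs Conv + LM mice the count was 1 in place of 0 with normexp (Mmp8) and without mice 1 and 25 (Il1b). Leaving out single mice gave 0 to 1 in both comparisons; the 1 in the latter was Mmp8, without mouse 16 or mouse 26. The exact tests at p under 0.05 were 1 of the 18 for genes above background, 0 with normexp or the log2 table, and 0 to 4 leaving out single mice, with 0 without any one of mice 1, 4, 5 or 14, 2 without mouse 25 and 4 without mouse 26. Genes at an unadjusted p under 0.05 in Conv + OM(HFD) vs Conv + LM mice were 872 in place of 551 with the slide as a block. Genes with a spread in the top 5% fell from 6 to 2 without mice 1 and 25.

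These signs turned. In Conv + OM(HFD) vs Conv + PBS mice, Mmp8 was 0.10 with normexp, 0.062 in the log2 table and 0.055 with array weights, and Ngp was -0.028 with quantile normalization, -0.069 in the log2 table, -0.015 with the slide as a block, -0.048 with array weights and -0.067 without mice 1 and 25. Il1b was 0.049 in Conv + OM(HFD) vs Conv + LM mice with normexp. In Conv + LM vs Conv + PBS mice, Il1b was 0.022 with array weights, and without mice 1 and 25 S100a9 was 0.35, Camp 0.020 and Il1b 0.44. Leaving out single mice, Conv + OM(HFD) minus Conv + PBS ran from -0.45 to 1.55 for S100a9, -0.78 to 1.21 for S100a8, -0.45 to 0.67 for Camp, -0.97 to 0.087 for Il1b, -0.40 to 0.41 for Mmp8 and -0.58 to 0.54 for Ngp, and Conv + LM minus Conv + PBS from -0.96 to 0.35 for S100a9, -0.76 to 0.020 for Camp and -0.32 to 0.44 for Il1b. Without mouse 25 no Conv + OM(HFD) array had Ngp well above background. The causes were not tested. No paired analysis was possible because the groups share no mouse numbers. Dim probes limit what can be said of Ltf, Retnlg and Cxcr2.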

Other observations

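Genes whose proteins resemble those of the neutrophil genes were read as values. The S100 relatives S100a4 (0.48 in mouse 1, 1.33 in mouse 25, -1.33 to 0.056 in the others) and S100a6 (0.81, 0.96, -1.33 to 0.58) had the same mice on top. S100a11 was highest in mouse 25 (-1.21, against -2.02 to -1.29) and inside that range in mouse 1 (-1.53), while S100a10 (2.35, 2.17, 2.07 to 3.26) and the transferrin gene Trf (9.57, 9.73, 9.48 to 9.92), a relative of lactoferrin, did not. Retn and Retnla failed the filter of 5 arrays, and Retnlb was not well above background on any.

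Some genes of the neutrophil and cytokine lists were highest in other mice, as values of 1 array each, named after their values were seen. Cxcl5, a neutrophil chemokine, was -0.32 in mouse 13 of Conv + LM and -4.30 in mouse 25, the 2 mice with it well above background. Gfi1 was well above background in mouse 13 alone (-2.87). Il6 was well above background in mouse 26 of Conv + OM(HFD) alone (-1.77).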
